A study of Mus musculus with 16 samples.

Results

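The cadherins and protocadherins of mouse skeletal muscle were followed over 4 ages, taking every scanner-file probe whose gene symbol is a protocadherin (Pcdh with letters or digits) or a numbered cadherin (Cdh), except Cdh5 and Cdh15. The rule picked 84 probes of 66 genes, among 55588 probes of 37167 genes. The genes comprise 22 beta protocadherins, 12 alpha and gamma protocadherins, 11 protocadherins outside the clusters and 21 cadherins. The rule uses no measured value. The tissue was the gastrocnemius, a calf muscle, of untreated female C57Bl/6J mice, and 4 samples were hybridised at each of 3, 15, 24 and 29 months of age, 1 Agilent array per sample. All groups share the strain, the sex and the absence of treatment. The labels do not say whether the 4 samples of an age came from 4 animals, so every p-value measures only the spread between these samples.

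Cadherins are calcium-dependent adhesion proteins that bind the same cadherin on a neighbouring cell and are held to actin inside the cell by catenins. The clustered protocadherins stand in 3 rows of near copies, alpha, beta and gamma, side by side on chromosome 18. Neurons express a few of these genes per cell, chosen with the help of CTCF, cohesin and promoter methylation. Beta protocadherins differ from alpha and gamma protocadherins in lacking shared constant exons. In muscle, cadherins are best known from the satellite cell niche and from the fusion of myoblasts.

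Levels are log2 signals minus the 75th percentile of the array, with the mean of the 16 percentiles, 7.97, added back, so that 1 unit is a doubling. A level describes a probe and is not comparable between genes. A gene was tested where a probe was well above background, by the scanner software's flag, on all 4 arrays of at least 1 age. This left 28 of the 66 members and 21776 genes in all. Another 26 members were well above background on no array. A change was called at an adjusted p under 0.05 (limma, Benjamini-Hochberg over all genes tested). The ages of 3 and 15 months lay in different rows of slide 1, and 24 and 29 months in different rows of slide 2. Age therefore cannot be told apart from array row within a slide, nor from slide in the other comparisons. The 3 month arrays alone lay in row 2 of slide 1, so that age and that place cannot be told apart. All 9 muscle fibre markers were well above background on all 16 arrays, with a summed level of 20.97 to 21.55. No array had a saturated probe, and 48.0% to 60.9% of probes were well above background.

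Most beta protocadherins had their highest levels at 3 months. Of all 22 on the array, without any filter, 20 had a lower mean at 15 than at 3 months, with a median log2 change of -0.70, where 56.0% of all 37167 genes had a lower mean and the median change was -0.03. These 22 include 10 genes above background on no array, of which 9 had a lower mean, with a median change of only -0.08. Of the other 12, 11 had a lower mean, with a median of -1.13. At 24 and at 29 months 18 of the 22 were lower than at 3 months, with medians of -0.55 and -0.75, where 51.5% and 53.3% of all genes were. Of the other 44 members 22 had a lower mean at 15 than at 3 months (median 0.02), 24 at 24 months (median -0.03) and 31 at 29 months (median -0.10). At 29 months lower means were thus frequent in both groups, at 70.5% of these 44 and 81.8% of the beta genes, and the sizes differed more than the counts. On 7 of the 22 beta genes all arrays at 15 months lay below all arrays at 3 months, against 3.97% of all genes. On 6 of the 22 the 3 month arrays lay above all 12 later arrays, against 1.28% of all genes. These 6 were Pcdhb6, Pcdhb14, Pcdhb16, Pcdhb17, Pcdhb20 and Pcdhb21.

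The number of beta probes well above background showed the same order. At 3 months 8 to 11 of the 22 were well above background on an array, at 15 months 5 to 8, and at both 24 and 29 months 4 to 8. Over the 4 arrays of an age this came to 38 of 88 readings at 3 months and to 26, 27 and 21 at the later ages. The other 62 probes of the family gave 96, 102, 101 and 98 of 248 readings, with no fall after 3 months.

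Only 3 beta genes were well above background on all 16 arrays, Pcdhb12, Pcdhb20 and Pcdhb21, so for these the filter did not depend on age. At 3 months Pcdhb21 stood at 6.88, 6.88, 7.15 and 6.98, at 15 months at 6.09, 5.89, 5.63 and 5.7, at 24 months at 5.6, 5.59, 5.85 and 6.25 and at 29 months at 5.52, 5.48, 5.98 and 6.14. All 4 arrays at 3 months were high, and the 12 later arrays mixed freely below them. Pcdhb21 fell 2.20-fold from 3 to 15 months (log2 change -1.14 ± 0.17 SE, limma adjusted p = 0.00578) and was 2.28-fold lower at 29 than at 3 months (-1.19 ± 0.17, adjusted p = 0.000538).

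The levels of Pcdhb20 were 6.78, 6.89, 7.08 and 6.94 at 3 months, 6.01, 5.55, 5.45 and 5.39 at 15 months, 6.17, 6.49, 5.8 and 6.19 at 24 months and 5.38, 5.82, 6.26 and 5.94 at 29 months. The 3 month arrays again stood alone at the top, and 15 months held most of the low arrays. The fall to 15 months was 2.50-fold (-1.32 ± 0.19, limma adjusted p = 0.00374), the smallest p among beta genes in that comparison, at rank 26 of all genes tested. At 29 months Pcdhb20 was 2.10-fold lower than at 3 months (-1.07 ± 0.19, adjusted p = 0.00182).

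Pcdhb12 read 6.25, 6.26, 6.06 and 5.87 at 3 months, 5.95, 6.46, 5.87 and 5.86 at 15 months, 6.23, 6.53, 6.14 and 6.16 at 24 months and 6.27, 5.97, 6.28 and 6.14 at 29 months. Pcdhb12 was the exception: its arrays overlapped at all ages, and its change from 3 months was -0.07 at 15 and 0.05 at 29 months (SE 0.15), with adjusted p of 0.961 and 0.851.

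Pcdhb6, Pcdhb14, Pcdhb16 and Pcdhb18 were well above background on all 4 arrays only at 3 months, and Pcdhb17 only at 3 and 15 months. They entered the test through the age at which they were high, so their calls are given as values and not counted as support. At 29 months each of them was well above background on 1 of 4 arrays, so the dim end of their folds is uncertain. At 3 months Pcdhb17 stood at 6.58, 6.25, 6.83 and 6.61, at 15 months at 5.76, 5.12, 5.6 and 5.21, at 24 months at 5.04, 4.78, 4.89 and 5.33 and at 29 months at 5.09, 4.76, 4.46 and 4.76. The 3 month arrays were highest, and the 29 month arrays lay below all 15 month arrays and overlapped those at 24 months. Pcdhb17 fell 2.21-fold from 3 to 15 months (-1.15 ± 0.18, adjusted p = 0.00659) and was 3.48-fold lower at 29 than at 3 months (-1.80 ± 0.18, adjusted p = 2.68e-05). Under other processing the log2 change at 29 months was as small as -0.53, still called.

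The levels of Pcdhb6 were 6.12, 5.87, 6.07 and 5.55 at 3 months, 4.52, 4.41, 4.5 and 4.18 at 15 months, 4.92, 4.23, 5.28 and 5.24 at 24 months and 4.46, 4.19, 4.16 and 4.92 at 29 months. All later arrays lay below all 3 month arrays. Pcdhb6 fell 2.83-fold by 15 months (-1.50 ± 0.22, adjusted p = 0.00457) and was 2.77-fold lower at 29 than at 3 months (adjusted p = 0.000691).

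Pcdhb16 read 5.71, 5.74, 5.9 and 5.45 at 3 months, 4.57, 4.06, 4.38 and 4.73 at 15 months, 4.83, 4.44, 4.16 and 5.0 at 24 months and 4.91, 4.56, 3.77 and 4.0 at 29 months. Here too the 3 month arrays did not overlap the others. The fall by 15 months was 2.41-fold (-1.27 ± 0.24, adjusted p = 0.020), a call lost on leaving out any 1 of 5 arrays (3 months replicates 1, 2 or 3, or 15 months replicates 2 or 3), with p up to 0.0789. The difference at 29 months was 2.63-fold (adjusted p = 0.00162).

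At 3 months Pcdhb14 stood at 5.85, 5.9, 6.42 and 5.69, at 15 months at 5.6, 5.32, 5.07 and 4.47, at 24 months at 5.1, 4.37, 5.27 and 5.15 and at 29 months at 5.64, 4.87, 4.46 and 5.0. The 3 month arrays lay just above the rest. Pcdhb14 missed the threshold at 15 months (-0.85 ± 0.28, adjusted p = 0.216) and fell 1.96-fold by 29 months (-0.97 ± 0.28, adjusted p = 0.0308). That call was lost without 3 months replicates 1, 2 or 3 or 29 months replicates 2, 3 or 4, with p up to 0.0924.

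The levels of Pcdhb18 were 4.94, 4.69, 5.08 and 5.84 at 3 months, 4.91, 4.3, 4.4 and 4.25 at 15 months, 4.58, 4.16, 4.72 and 4.99 at 24 months and 4.31, 4.36, 4.38 and 3.59 at 29 months. Only the 29 month arrays lay wholly below the 3 month arrays. The change was -0.67 ± 0.26 at 15 months (adjusted p = 0.317) and -0.98 ± 0.26 at 29 months (adjusted p = 0.0193), the second lost without 3 months replicate 4 or 29 months replicate 4, with p up to 0.0578, and when only the ages compared were fitted (0.0594).

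Normexp background correction with an offset of 50 made the beta changes smaller, to -0.70 for Pcdhb20 and -0.54 for Pcdhb21 at 15 against 3 months, both still called. It ended the calls of Pcdhb16 at 15 months (adjusted p = 0.0509) and of Pcdhb14 and Pcdhb18 at 29 months (0.102 and 0.352). Testing all genes with no filter ended those of Pcdhb16 at 15 months (0.0504) and Pcdhb14 at 29 months (0.0636).

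**Figure D1:**
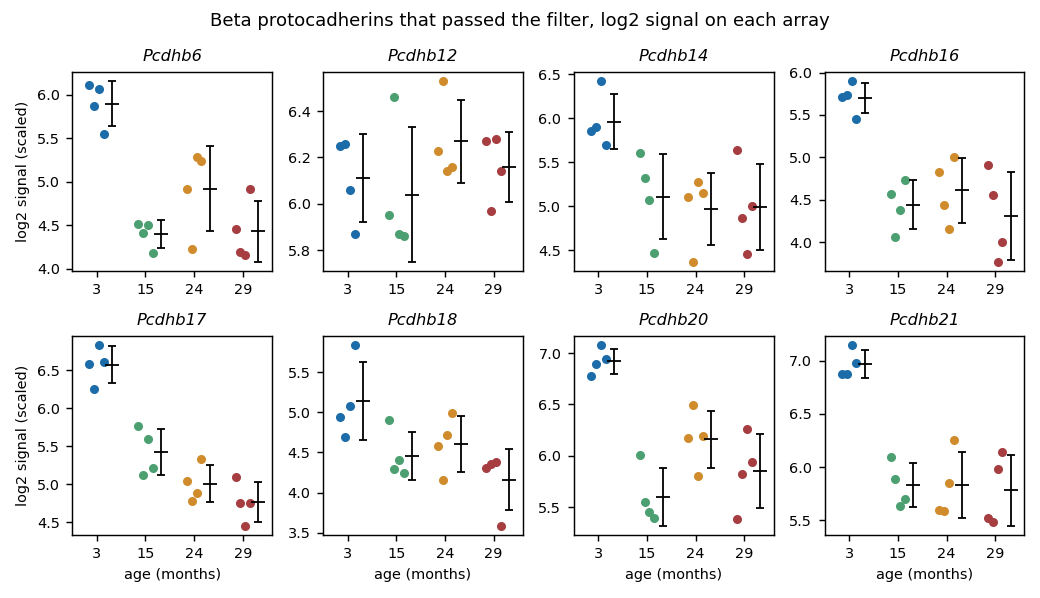
Log2 signal on each array (points, left to right replicates 1 to 4) against age for the 8 beta protocadherins that were tested, with the mean and SD of the 4 arrays in black and a separate y axis for each gene. In 6 of the 8 genes the 3 month arrays lie above all 12 later arrays, against 2.18% of all genes tested. Pcdhb6, Pcdhb14, Pcdhb16, Pcdhb17 and Pcdhb18 entered the test through ages at which they were high, so this count is a description only. In Pcdhb12 the 4 ages overlap.

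Dimmer beta genes were described without a test. Pcdhb22 read 5.1, 5.01, 5.19 and 4.2 at 3 months, 2.64, 4.27, 2.9 and 3.25 at 15 months, 3.36, 3.59, 3.36 and 2.87 at 24 months and 2.97, 2.43, 2.57 and 4.18 at 29 months. Pcdhb22 was well above background on 3 arrays at 3 months and on none later, which makes it at least 1.35-fold higher at 3 than at 15 months, at least 1.38-fold higher than at 24 months and at least 1.35-fold higher than at 29 months. Each bound sets the 3 month mean against the lowest signal well above background on each later array. The flag is set spot by spot, so probes without it can read above that signal, and the bounds are approximate. The exception in the other direction was Pcdhb15. At 3 months Pcdhb15 stood at 4.55, 4.24, 4.91 and 4.44, at 15 months at 3.59, 3.18, 4.13 and 4.33, at 24 months at 4.39, 4.81, 4.25 and 3.93 and at 29 months at 4.28, 4.88, 4.83 and 6.32. It was well above background on 2, 0, 1 and 3 arrays at the 4 ages, and was at least 1.55-fold higher at 29 than at 15 months by the same bound, with 29 months replicate 4 far above the others.

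Lower means occurred in both stretches of the row. Of the genes numbered 1 to 13, 5 had a mean at least 0.5 lower at 15 than at 3 months (Pcdhb4, Pcdhb6, Pcdhb7, Pcdhb9 and Pcdhb10), and of those numbered 14 to 22, 8 of 9 had, a division made after the values were seen and not tested. Detection moved with it: 4 of the first 13 and 8 of the last 9 were well above background on at least 1 array, and of these 2 and 8 were that much lower. Among the 12 beta genes above background on at least 1 array, 11 had a lower mean at 15 months (median -1.13); among the 10 above background on none, 9 had a lower mean, with a median of only -0.08, and a level under background says little. The beta genes are close copies of each other, and whether probes bind the RNA of more than 1 of them was not tested.

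**Figure D2:**
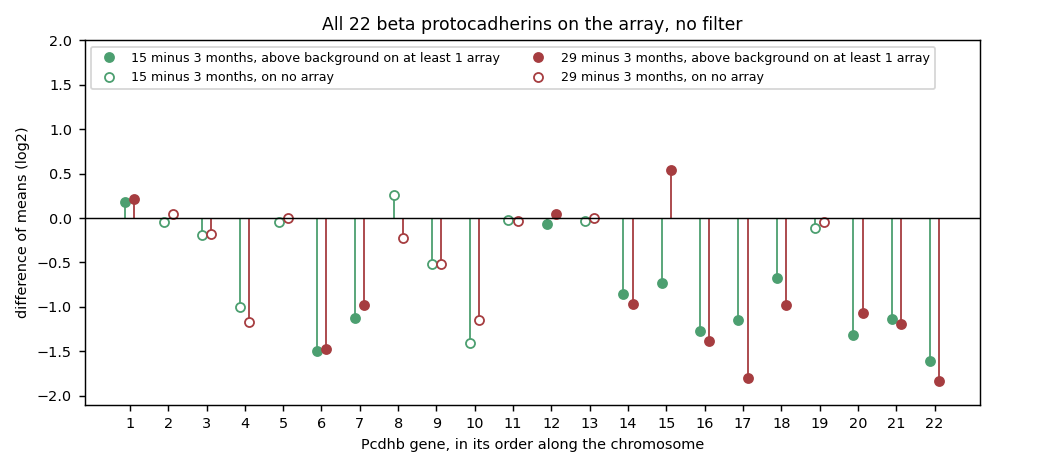
Difference of means in log2 signal, 15 minus 3 months (green) and 29 minus 3 months (red), for all 22 beta protocadherins on the array, numbered along the x axis in their order on the chromosome; open circles mark genes well above background on no array. Genes 4, 6, 7, 9, 10, 14, 16 to 18 and 20 to 22 lie more than 0.5 below 0 at both ages, while Pcdhb12 lies near 0 and Pcdhb15 is lower at 15 and higher at 29 months.

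Of the 28 tested members 19 were well above background on all 16 arrays, so that their entry into the test did not depend on age. Among these 19, 2 were called lower at 15 than at 3 months, Pcdhb20 and Pcdhb21, and none higher. Of the 18867 genes above background on all arrays, 0.276% were called lower there and 0.625% higher. At 24 against 3 months 3 of the 19 were called lower, Pcdhb20 (-0.76), Pcdhb21 (-1.14) and Pcdha8 (-0.60), and none higher, where 2.58% of these genes were lower and 1.81% higher. At 29 against 3 months the same genes and Pcdh12 were called lower, 4 of 19, and none higher, where 7.84% were lower and 7.17% higher.

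The other calls belong to members that entered the test through ages at which they were high, and are values only. Pcdhb6, Pcdhb16 and Pcdhb17 were called lower at 15, 24 and 29 against 3 months, with changes of -0.99, -1.09 and -1.56 at 24 months. Pcdhb14 and Pcdhb18 were called lower at 29 months, and Cdh22 was called higher at 24 and 29 months. Single arrays decided some of the calls at 24 months. That of Pcdhb20 did not survive leaving out any 3 month array or 24 months replicates 1, 3 or 4 (p up to 0.099), nor testing with no filter (0.0769) or a replicate block (0.0697). That of Pcdhb6 was lost without 3 months replicates 1, 2 or 3 or 24 months replicates 1 or 2 (p up to 0.0721) and under 4 other settings (p up to 0.153), and that of Pcdhb16 without 3 months replicates 2 or 3 or 24 months replicate 2 (p up to 0.0645) and with normexp (0.0798). These comparisons share the 3 month arrays and do not count as separate evidence.

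After 15 months no member was called. At 24 against 15 months 0 of 28 passed, with 6 at an unadjusted p under 0.05 (limma), where 0.0964% of all genes were called and 13.4% had such a p. The median over the 22 beta genes was 0.07. At 29 against 24 months 0 of 28 passed, with 1 at an unadjusted p under 0.05, where 1.91% of all genes were called and 15.3% had such a p. The 22 beta genes had a median of -0.13, beside -0.09 over the other 44 members. On the authors' deposited log2 values 2 members were called at 29 against 24 months.

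A line fitted in age, holding slide as a block, joins both comparisons made within a slide. The step from 3 to 15 months spans more months and so weighs more in the slope. Calls along the line are therefore not separate evidence from those at 15 against 3 months. The slope also leaves out the change between slides (0.56 for Pcdhb20 at 24 against 15 months) and does not show a steady fall. Of the 19 members above background on all arrays the line called 2 lower, Pcdhb20 (-0.103 log2 units per month of age, adjusted p = 0.00402) and Pcdhb21 (-0.0823, adjusted p = 0.0201), where 0.223% of such genes were called lower, and none higher, where 0.387% were. The call of Pcdhb20 was lost on the deposited log2 values (0.0722). That of Pcdhb21 was lost with scaling to the median (0.0944) and without replicates 2, 3 or 4 of either 3 or 15 months (p up to 0.067). Pcdhb6, Pcdhb16 and Pcdhb17, which entered through the ages at which they were high, had slopes of -0.121, -0.0988 and -0.0885 (adjusted p = 0.00331, 0.0207 and 0.00865). That of Pcdhb17 was not called with normexp (0.102) or on the deposited values (0.209), and that of Pcdhb16 not with no filter (0.0517), nor without 3 months replicates 1, 2 or 3 or 15 months replicates 2 or 3 (p up to 0.0791). Whether the step from 3 to 15 months differed from the step from 24 to 29 months was tested directly, a contrast chosen after the data were seen. No member passed, where 0.67% of all genes did, with 6 of 28 (21.4%) at an unadjusted p under 0.05, where 12.5% of all genes were. These 6 were Pcdhb20, Pcdhb21, Pcdhb6, Pcdhb14, Pcdhb16 and Pcdhb17. The last 4 entered the test through ages at which they were high, so the share of 21.4% is a value only. The smallest adjusted p was that of Pcdhb21 (steps of -1.14 and -0.05, difference 1.1, adjusted p = 0.06), so the steps are not shown to differ.

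**Figure D3:**
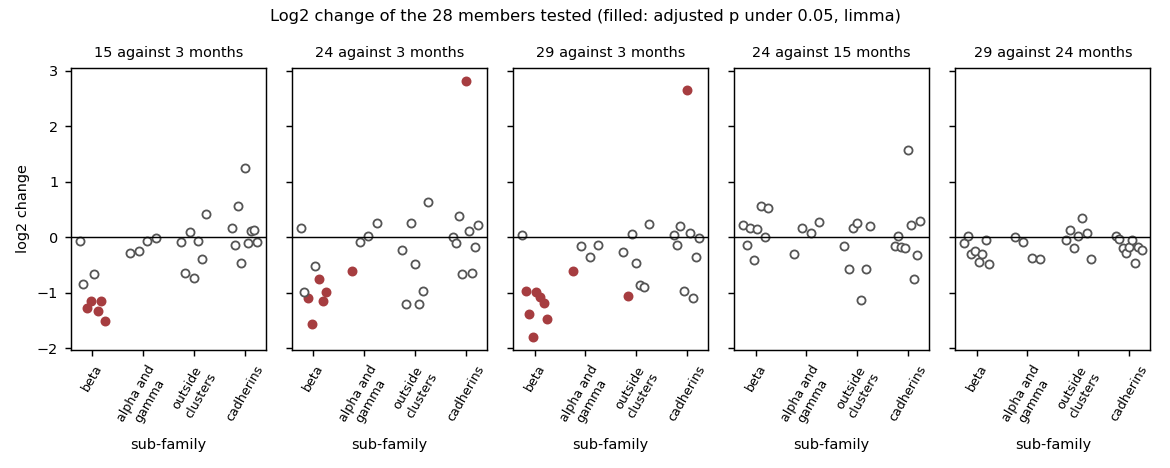
Log2 change of each of the 28 tested members, 1 point per gene, by sub-family on the x axis, in 5 comparisons of ages; filled red points have an adjusted p under 0.05 (limma). Filled points appear against 3 months only: beta genes at 15 months, from 24 months also Pcdha8 and, highest, Cdh22, and at 29 months also Pcdh12. They include genes that entered the test through ages at which they were high.

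Of the 12 alpha and gamma protocadherins 4 were tested, and 1 changed. The levels of Pcdha8 were 8.26, 8.32, 8.17 and 8.17 at 3 months, 8.21, 7.84, 8.04 and 7.69 at 15 months, 7.68, 7.5, 7.89 and 7.45 at 24 months and 7.38, 7.93, 7.71 and 7.49 at 29 months. The 3 month arrays overlapped those at 15 months and lay above all arrays at 24 and 29 months. Pcdha8 was 1.52-fold lower at 29 than at 3 months (-0.61 ± 0.14, adjusted p = 0.0101). Its call at 24 months (-0.60, adjusted p = 0.0268) was lost without any 1 of the 3 month arrays or 24 months replicates 1, 2 or 4, with p up to 0.0769, and with scaling to the median (0.052), no filter (0.0642) or without the 4 arrays that stand apart (0.159), and its call at 29 months was lost with scaling to the median (adjusted p = 0.0623).

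Pcdhga9 read 10.91, 11.06, 11.48 and 11.04 at 3 months, 10.97, 10.91, 11.07 and 10.56 at 15 months, 11.2, 10.95, 11.04 and 10.98 at 24 months and 10.8, 10.9, 10.86 and 11.27 at 29 months. The ages overlapped, and the change at 29 against 3 months was -0.16 (adjusted p = 0.511). A second probe of Pcdhga9, fitted among all probes, went the other way there, by 0.25 (limma adjusted p = 0.599). At 15 against 3 months the second probe changed by -0.73 ± 0.27 (adjusted p = 0.285), beside -0.24 on the first. At 3 months Pcdhgb1 stood at 6.69, 6.47, 6.11 and 6.26, at 15 months at 6.35, 6.15, 6.68 and 6.08, at 24 months at 6.79, 6.64, 6.13 and 6.01 and at 29 months at 5.72, 6.36, 6.13 and 5.87. The levels of Pcdhgc5 were 6.04, 5.87, 5.51 and 6.08 at 3 months, 5.94, 5.82, 5.78 and 5.9 at 15 months, 5.98, 6.43, 6.07 and 6.06 at 24 months and 5.86, 6.07, 5.94 and 5.12 at 29 months. The ages overlapped in both genes, except that Pcdhgc5 at 24 months lay just above its 15 month arrays. No gamma gene passed in any comparison, and whether gamma and beta genes differ was not tested.

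Of the 11 protocadherins outside the clusters 7 were tested. Pcdh12, a protein of endothelial cells, was the 1 called, lower at 29 against 3 months, where 7.66% of all genes tested were. Pcdh12 read 8.72, 8.26, 8.44 and 8.61 at 3 months, 7.85, 7.94, 7.75 and 7.94 at 15 months, 7.82, 6.0, 7.88 and 7.51 at 24 months and 7.35, 7.82, 6.82 and 7.78 at 29 months. All later arrays lay below all 3 month arrays, with 24 months replicate 2 far down. Pcdh12 changed by -0.64 ± 0.33 by 15 months (adjusted p = 0.532) and fell 2.09-fold by 29 months (-1.06 ± 0.33, adjusted p = 0.044). The call at 29 months did not survive leaving out any 1 of 11 arrays (each of the 3 and 15 month arrays, 24 months replicate 4, 29 months replicates 1 or 3), with p up to 0.12, and under 5 of 10 other settings, with p up to 0.159.

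At 3 months Pcdh19 stood at 8.33, 8.38, 8.6 and 8.58, at 15 months at 7.92, 8.07, 8.09 and 8.2, at 24 months at 7.61, 6.26, 8.19 and 7.92 and at 29 months at 7.52, 7.64, 7.1 and 8.02. Pcdh19, known for its part in neuronal adhesion, was the other member with all 3 month arrays above all later ones, and missed the threshold at 29 months (-0.90 ± 0.31, adjusted p = 0.0662). The levels of Pcdh18 were 7.25, 7.23, 6.91 and 6.84 at 3 months, 7.0, 7.17, 6.7 and 7.08 at 15 months, 5.52, 4.76, 6.73 and 6.41 at 24 months and 5.57, 6.67, 5.51 and 7.06 at 29 months. Its 3 and 15 month arrays overlapped, and several later arrays were low (29 against 3 months -0.86 ± 0.40, adjusted p = 0.168).

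The arrays lowest in these genes were low in fibroblast markers and in most endothelial markers. For each marker list, the median deviation of its genes from their means over all arrays was taken on each array. For 8 fibroblast markers it was -1.95 on 24 months replicate 2 and -1.32 on 29 months replicate 3, against 0.25 to 0.77 at 3 months, and for 8 endothelial markers -1.13 and -0.46, against 0.16 to 0.47. The endothelial Kdr was not low there, at 14.21 and 13.73, against 13.18 to 13.84 at 3 months, nor was Cldn5 on 29 months replicate 3 (9.39). The summed level of the endothelial list overlapped between ages, at 14.39 to 14.74 at 3 months, 14.33 to 14.58 at 24 months and 14.16 to 14.67 at 29 months. The part of these cells in the values of Pcdh12, Pcdh18 and Pcdh19 was not tested. In whole muscle, fewer cells of a type and less RNA per cell cannot be told apart.

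Pcdh17 read 6.87, 6.51, 6.42 and 6.87 at 3 months, 6.07, 5.88, 5.86 and 5.92 at 15 months, 7.08, 5.33, 5.82 and 6.49 at 24 months and 6.38, 6.05, 6.15 and 6.25 at 29 months. Only the 15 month and 29 month arrays lay wholly below the 3 month arrays (15 against 3 months -0.73 ± 0.27, adjusted p = 0.291). At 3 months Pcdh1 stood at 10.19, 10.23, 10.23 and 10.23, at 15 months at 10.16, 10.17, 10.32 and 9.93, at 24 months at 10.11, 10.08, 10.03 and 9.75 and at 29 months at 9.84, 10, 9.9 and 10.07. Pcdh1 varied little, and all its 29 month arrays lay below all 3 month arrays, with a change of -0.27 ± 0.10 (adjusted p = 0.097). The levels of Pcdh15 were 5.73, 5.3, 5.54 and 6.1 at 3 months, 5.56, 5.77, 5.88 and 5.82 at 15 months, 5.86, 6.21, 5.74 and 5.89 at 24 months and 5.87, 5.79, 5.73 and 5.53 at 29 months. Pcdh15, a protein of the hair cell tip link, overlapped at all ages. Pcdh9, the last of the 7, had its arrays between 4.59 and 6.17 and passed in no comparison.

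Among the 21 cadherins 9 were tested, and Cdh22, first described in pituitary and brain, was the 1 called, higher at 24 and 29 months. Over all genes tested 471 of 21776 were called higher at 24 against 3 months and 6.99% at 29 against 3 months. Cdh22 entered the test through the later ages, at which it was high, so its calls are values only. Cdh22 read 5.59, 4.42, 4.35 and 5.82 at 3 months, 6.51, 4.93, 5.88 and 7.86 at 15 months, 7.76, 8.44, 7.44 and 7.82 at 24 months and 6.96, 7.8, 8.12 and 7.91 at 29 months. All arrays at 24 and 29 months were above all arrays at 3 months, and 15 months spanned the gap, with replicate 4 at the later level. Cdh22 was 7.05-fold higher at 24 than at 3 months (2.82 ± 0.51, adjusted p = 0.00696) and 6.28-fold higher at 29 months (2.65 ± 0.51, adjusted p = 0.00333). At 15 months the change was 1.25 ± 0.51 (adjusted p = 0.362). At 3 months only 2 of 4 arrays were well above background, so the dim end of these folds is uncertain, and with normexp background correction they were smaller, at log2 1.59 and 1.42. Without the 4 arrays that stand apart (24 months replicates 2 and 4, 29 months replicates 1 and 3) the call at 24 months was lost (adjusted p = 0.0653).

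At 3 months Cdh4 stood at 9.36, 9.13, 9.38 and 8.57, at 15 months at 9.54, 9.73, 9.56 and 8.06, at 24 months at 7.85, 8.62, 8.88 and 8.54 and at 29 months at 8.16, 6.88, 8.87 and 8.13. Cdh4, or R-cadherin, had its low arrays at 15 months replicate 4 and at the later ages, and the ages overlapped. Its probe of highest mean missed the threshold at 29 against 3 months (-1.1 ± 0.41, adjusted p = 0.089), while a second probe, fitted among all probes, passed (-1.56 ± 0.47, adjusted p = 0.0385).

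The levels of Cdh2 were 7.43, 7.15, 8.14 and 8.1 at 3 months, 6.93, 7.4, 7.52 and 7.1 at 15 months, 5.96, 7.66, 6.73 and 7.79 at 24 months and 7.51, 5.98, 6.8 and 6.7 at 29 months. Cdh2, or N-cadherin, which takes part in myoblast adhesion, likewise overlapped. Its change at 29 against 3 months was -0.96 ± 0.39 (adjusted p = 0.115) on the probe of highest mean and -0.73 ± 0.22 (adjusted p = 0.0357) on the second.

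Cdh13 read 12.55, 12.24, 12.37 and 12.34 at 3 months, 12.15, 12.27, 12.22 and 12.36 at 15 months, 12.52, 12.12, 12.39 and 12.05 at 24 months and 11.74, 12.6, 12.14 and 12.5 at 29 months. Cdh13, or T-cadherin, a lipid-anchored receptor of adiponectin, kept within 11.74 to 12.60, with a change of -0.13 at 29 months (adjusted p = 0.652). At 3 months Cdh26 stood at 8.11, 7.97, 7.82 and 7.99, at 15 months at 7.9, 7.87, 7.78 and 7.91, at 24 months at 7.84, 8.5, 7.82 and 8.21 and at 29 months at 8.42, 7.76, 8.23 and 7.76. The levels of Cdh8 were 6.58, 6.48, 6.76 and 6.86 at 3 months, 6.64, 6.8, 6.49 and 6.41 at 15 months, 6.91, 7.11, 7.04 and 6.5 at 24 months and 6.51, 6.86, 6.72 and 6.54 at 29 months. Both overlapped at all ages and passed in no comparison. Cdh6, Cdh12 and Cdh16, the other 3 tested, changed by -0.36 to 0.20 at 29 against 3 months and were not called.

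**Figure D4:**
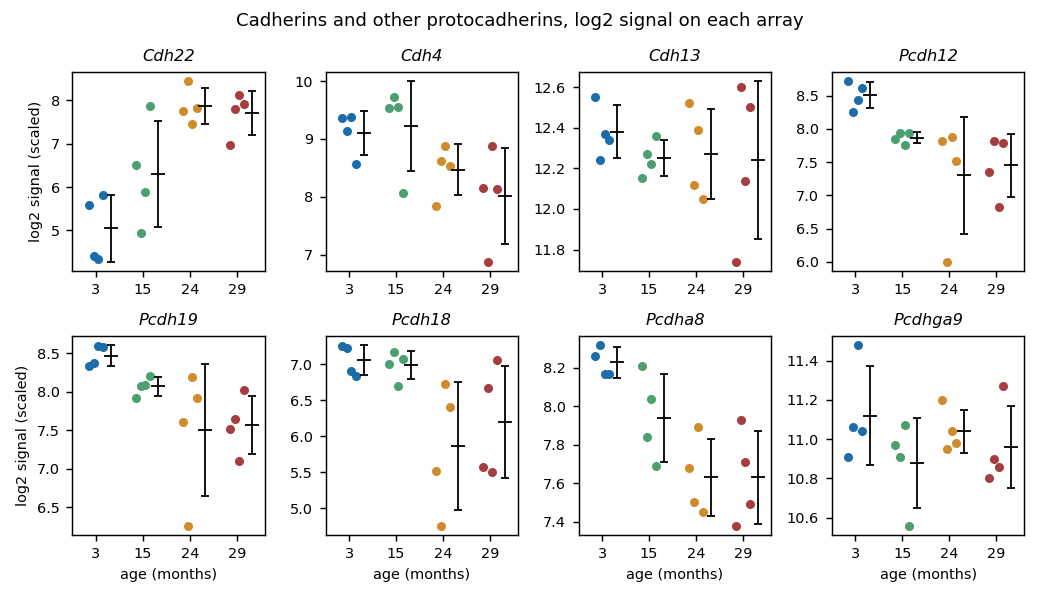
Log2 signal on each array (points, left to right replicates 1 to 4) against age for 8 members outside the beta cluster, with the mean and SD of the 4 arrays in black and a separate y axis for each gene. Cdh22 climbs from between 4.35 and 5.82 at 3 months to between 6.96 and 8.44 at 24 and 29 months, and Pcdh12, Pcdh18 and Pcdh19 share a low array at 24 months.

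Markers of satellite cells, the stem cells of muscle, did not all have the same order of ages. Mean levels of Pax7 were 6.10, 5.41, 5.42 and 5.36 at 3, 15, 24 and 29 months, and Calcr too was highest at 3 months. Chodl was highest at 15 months (5.56, against 5.48 at 3 months), Vcam1 at 29 months (7.99, against 7.53), and Cdh15 stayed between 10.67 and 10.77. The median deviation of these 5 markers on an array was 0.19 to 0.69 at 3 months and -1.22 to 0.07 on the 12 later arrays. None of the 5 was called at 15 against 3 months (2 at an unadjusted p under 0.05, limma). Calcr was well above background on 4, 0, 0 and 1 arrays at the 4 ages, and was at least 1.75-fold higher at 3 than at 24 months (limma adjusted p = 0.0145). Chodl fell by 24 months (-1.69, adjusted p = 0.00384), where 1 of 4 arrays was well above background, and Pax7 by 29 months (-0.73, adjusted p = 0.0251). Myf5 was above background on none of the 16 arrays. The summed level of all 6 listed markers overlapped between ages, at 10.92 to 11.16, 10.83 to 11.08, 10.77 to 11.01 and 10.77 to 11.37. Cdh15 had the highest mean signal of the 6 by far, so this sum mostly follows Cdh15 and says little of the others. The markers of smooth muscle and pericytes were at 0.21 to 0.55 at 3 months and -0.87 to 0.23 later. Of these 8, 4 had an unadjusted p under 0.05 at 15 against 3 months (limma, 2335 of 21776 over all genes), and none was called. Pdgfrb and Kcnj8 among them had all 3 month arrays above all later arrays. So did the fibroblast markers Col1a1, Col3a1 and Cd34 and the endothelial Cdh5 and Tie1, and 2.18% of all genes tested. The other markers of these lists overlapped, and Mustn1 had its lowest mean at 3 months. The part of these cells in the beta protocadherin values was not tested.

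Of 65 tested genes from 4 lists of genes that work with cadherins, none passed at 15 against 3 months, where 0.978% of all genes did, and 13 (20%) had an unadjusted p under 0.05 (limma), where 2335 of all 21776 genes had. None passed at 29 against 24 months, with 6 (9.23%) at an unadjusted p under 0.05, below the 15.3% of all genes. Along the line in age 1 of the 65 was called, Dnmt3a (-0.0575 per month, adjusted p = 0.0462), where 0.634% of all genes were. At 29 against 3 months 7.66% of all genes tested were called lower and 6.99% higher. Of 19 tested regulators of clustered protocadherin choice, 4 (21.1%) were called lower there and none higher, with a list median of -0.06 beside -0.04 over all genes. The clearest was Dnmt3a, a DNA methyltransferase. Dnmt3a read 11.37, 11.21, 11.38 and 11.59 at 3 months, 10.86, 10.79, 10.75 and 10.84 at 15 months, 10.82, 10.35, 10.43 and 10.34 at 24 months and 9.7, 10.14, 9.64 and 10.24 at 29 months. The 3 month arrays were above all others and the 29 month arrays below all others (29 against 3 months -1.46 ± 0.15, limma adjusted p = 2.82e-05; 15 against 3 months -0.58). The others were the cohesin subunits Stag1 (-0.45, adjusted p = 0.00827) and Stag2 (-0.31, adjusted p = 0.041) and the cohesin regulator Pds5b (-0.59, adjusted p = 0.0204).

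Of 14 tested catenins and junction proteins, 4 (28.6%) were called higher and 1 (7.14%) lower at 29 against 3 months. Pkp2, a desmosomal plakophilin, was 2.33-fold higher (1.22 ± 0.16, adjusted p = 0.000217), and Pkp4, Ctnna1 and Ctnna3 rose by 0.78, 0.44 and 1.14, while Ctnnd1, which binds the cadherin tail, fell by 0.41. Ctnna3 was well above background on 1 of 4 arrays at 3 months and entered the test through later ages. Of 13 tested genes of the wider cadherin superfamily, 5 (38.5%) were called lower and none higher. Ret, Clstn2 and Fat4 among these were well above background on all 4 arrays only at 3 and 15 months. They entered the test through ages at which they were high, so the share of 38.5% is a value only. The receptor tyrosine kinase Ret was above background on no array at 29 months and was at least 5.61-fold higher at 3 months (limma adjusted p = 0.00311). The others were Clstn2 (-2.28) and Fat4 (-0.92), each well above background on 1 of 4 arrays at 29 months, Dchs1 (-1.28), the partner of Fat4, and the endothelial Cdh5 (-1.02). All 5 were lowest among the 29 month arrays on replicate 3. Ret, Dchs1, Fat4 and Cdh5 were also lowest among the 24 month arrays on replicate 2. These arrays were low in fibroblast and most endothelial markers. In Ret, Dchs1, Fat4 and Cdh5 all 3 month arrays also lay above all later arrays, those at 15 months included, as in 2.18% of all genes tested. Their means at 3 and 15 months were 7 and 5.43, 7 and 6.35, 5.19 and 4.9, and 10.74 and 10.03, with no call at 15 months. At 15 months the median deviation was 0.23 to 0.47 for fibroblast and -0.05 to 0.21 for endothelial markers. The part of these cells in these values was not tested. Of 19 proteases and partners 2 (10.5%) were called higher and 1 (5.26%) lower: Cyfip2, an actin regulator, was 5.17-fold higher (2.37 ± 0.38, adjusted p = 0.000926), Abi1 rose by 0.59 and Adam17, a sheddase, fell by 0.57.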

How the data were processed

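Gene expression was measured in 16 gastrocnemius samples, 4 per age, each on 1 Agilent array with a single Cy3 dye. Per the file headers, the authors' scanner files were made with Feature Extraction 10.7.1.1, and their intensity values are background-subtracted and spatially detrended within the array, with no scaling between arrays. The authors also deposited a table of log2 values, its normalization not given in the sources used here; it was used as an alternative only, joined by feature number (correlation with the scanner values 0.985 to 0.993 per array, against -0.0051 to 0.0181 by probe name). Control spots and outlier flags were left out, log2 intensities were scaled by subtracting each array's 75th percentile, and spots of a probe were averaged. Probes were named through RefSeq accessions, which matched 26540 of 55588 probes. A gene was represented by its probe of highest mean among probes well above background on all 4 arrays of an age. limma 3.58.1 in R 4.3.3 fitted the means of the 4 ages on all 16 arrays (12 residual degrees of freedom), with two-sided p-values adjusted by Benjamini-Hochberg over 21776 genes. The fit was tested on simulated data. Precision is limited by 4 arrays per age; arrays give no read depth.

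The members and gene lists were chosen with earlier results of these data known, so no test over a list is given. Values on each array are given for the 6 members of highest mean in each sub-family and for every called member; related genes were named where called at 29 against 3 months. Titles number the samples 1 to 4 at each age, but same-numbered arrays did not deviate together, so the fit has no replicate block. Bounds for dim probes, in means of log2 values, set the bright mean against, per later array, the higher of its lowest signal well above background and the probe's own. They are approximate, since probes without the flag can read above that lowest signal. Alternatives changed the scaling, the background correction, the value source, the filter, the probe rule, the samples fitted, the fold threshold and the block, and left out arrays. No sequence is printed, as the tables used here hold none for the clustered protocadherins.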

Additional observations from a re-analysis of the deposited data

Results flagged for a closer look

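In 112 groups of 4 arrays (28 tested members at 4 ages), 5 held an array whose gap to its nearest neighbour was above Dixon's 95% critical share of the range of the group; chance alone flags about 1 group in 20. Pcdhb12 was at 6.46 on 15 months replicate 2, above the other 3 arrays at 5.86 to 5.95. Pcdhb18 was at 3.59 on 29 months replicate 4, below 4.31 to 4.38. Cdh4 was at 8.06 on 15 months replicate 4, below 9.54 to 9.73. Cdh12 was at 5.93 on 24 months replicate 4, below 6.71 to 6.83. Pcdh1 was at 10.19 on 3 months replicate 1, below 10.23 on each of the others, a small gap in a narrow group.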

How the results depend on the processing

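No called member changed direction under any alternative run. Counts of members here include those that entered the test through ages at which they were high (as reported, 5, 6 and 9 lower at 15, 24 and 29 against 3 months, 1 higher at the last 2, and 5 lower along the line). With only probes well above background on all 16 arrays, which tests 3 beta genes, 2 beta genes were called lower in each comparison that called any, and the members called in all were 2 at 15 against 3 months, 4 at 24 and at 29 against 3 months and 2 along the line in age. At 24 against 3 months no filter left 4 members called, 3 of them beta genes, and normexp on median signals (the files hold no mean signals) left 3 beta genes. The deposited log2 values gave 2 members called at 29 against 24 months and 3, all beta genes, along the line. Over all alternatives that kept every array or changed the samples otherwise, 2 to 7 members (beta genes 2 to 5) were called at 15 against 3 months. Along the line 2 to 6 members (beta genes 2 to 5) were called. Calls there were thus not confined to beta genes in every setting. Leaving out 1 array at a time gave 3 to 9 members (beta genes 2 to 6) at 24 against 3 months, 3 to 5 (all beta genes) along the line, 4 to 5 at 15 against 3 months and 8 to 11 at 29 against 3 months. The lowest counts at 24 against 3 months came without 3 months replicates 2 or 3 (3 members, 2 of them beta genes); without 3 months replicate 1 or 24 months replicates 1 or 2 there were 4 members and 3 beta genes, and along the line 3 remained without 3 months replicates 2 or 3 or 15 months replicates 2 or 3. Normexp with an offset of 50, which compresses dim probes by construction, shrank the beta changes, for example that of Pcdhb20 at 15 against 3 months from -1.32 to -0.70.

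With the replicate block, counts were 5, 6 and 9 members at 15, 24 and 29 against 3 months; it ended the calls of Pcdhb20 at 24 months (adjusted p = 0.0697) and Pcdh12 at 29 months (adjusted p = 0.0625). Over 24 pairs of same-numbered arrays the correlation of their deviations had a median of 0.00119 (range -0.471 to 0.303), and 2 of 16 arrays correlated best with their own number. Slide as a random block is not listed as an alternative, since each age lay on 1 slide and that fit equals the main fit. Scaling to the median moved the median of all genes by up to 0.13 (from -0.02 to -0.15 at 24 against 3 months), and the median of the tested beta genes there from -0.99 to -1.12. At 29 against 24 months it moved the share of lower calls over all genes from 23.3% to 9.24%, at 24 against 15 months from 28.6% to 44.4%, and along the line from 37.7% to 25%. The deposited values put that share at 40.8% at 15 against 3 months (from 29.1%), at 39.6% at 29 against 24 months and at 53.6% at 24 against 15 months. The count of all genes called at 15 against 3 months, 213, ranged from 86 to 270 with 1 array left out and from 89 to 748 under the other alternatives. Those ranges under the other alternatives were 470 to 1846 at 24 against 3 months (1013 as reported), 1538 to 3715 at 29 against 3 months (3189), 9 to 1097 at 29 against 24 months (417), 10 to 32 at 24 against 15 months (21) and 66 to 546 along the line (138).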

Other observations

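The genes that stand next to the clustered protocadherins were looked at after the data were seen, and their difference from the beta genes was not tested. They comprised Taf7, between the beta and gamma rows, and the 5 nearest tested genes on each side, 11 in all. None of the 11 was called at 15 against 3 months by limma, where 0.978% of all genes were, and 1 had an unadjusted p under 0.05 (2335 of 21776 over all genes), with changes of -0.44 to 0.63 and a median of 0.01. At 29 against 3 months 2 of the 11 were called, both higher, where 6.99% of all genes were higher and 7.66% lower: Diaph1, an actin-nucleating formin (1.27 ± 0.17, adjusted p = 0.000271), and Taf7, a subunit of the general transcription factor TFIID (0.54 ± 0.16, adjusted p = 0.0316). Arap3 had lower values in each comparison with 3 months (-0.44, -0.71 and -0.54 at 15, 24 and 29 months) and was not called. Hars and Hars2, histidyl-tRNA synthetases on the other side, changed by 0.05 and -0.14 and were not called.

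Among the marker lists of other cell types, Kera, the tendon matrix protein keratocan, was the 1 marker called at 15 against 3 months. Its 4 arrays at 3 months, through which it entered the test, were well above background and no later array was, so only a bound can be given: it was at least 3.24-fold higher at 3 than at 15 months (measured means 6.14 and 3.20, limma adjusted p = 0.00408) and at least 3.24-fold higher than at 29 months (adjusted p = 7.77e-05). Fmod, a collagen-binding proteoglycan, was lower at 29 months (-1.17 ± 0.17, adjusted p = 0.000536).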
